A study of Mus musculus with 5 samples.

Results

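The solute carrier (Slc) genes on the array were those whose annotated symbol begins with Slc and a number, without Slc7a2 and Slc31a2. Of 150 such genes, 137 had a probe measured on all 5 arrays (193 probes), out of 8637 genes measured in the series. They spanned 42 families and were grouped by family number into carriers of glucose and other sugars (10 genes), amino acids (26), metals (16), ions (9), mitochondrial metabolites (17) and other substrates (59). RNA of macrophages grown from C3H/ARC bone marrow with human CSF-1, the growth factor of the lineage, was set against RNA of whole C57BL6/J embryos of day 17.5 on two-colour cDNA arrays. The macrophages were untreated (0 h) or had received 10 µg per ml of lipopolysaccharide (LPS) of S. minnesota for 0.5, 2, 7 or 21 h. Each time was 1 array, with no replicate, so no test was made and no p-value is given.

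Solute carriers are membrane proteins that move sugars, amino acids, nucleosides, lipids, vitamins, metals and inorganic ions down or against their gradients. Family numbers follow sequence similarity, and members of one family mostly share a class of substrate. Macrophages draw on them to fuel glycolysis, to take up amino acids for growth, and to withhold iron, zinc and manganese from microbes or expose microbes to them. Slc9a3r1 and Slc9a3r2 share the prefix but encode scaffold proteins that bind transporters.

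All values below are log2 ratios of macrophage over embryo after subtracting the array median, averaged over the probes of a gene. A change is the difference in log2 ratio between an LPS array and the 0 h array, and every change uses the same 0 h array. The labels do not give the base of the deposited log ratios, which was read as 10, and if it was 2 every log2 value here is 3.32 times too large. The direction is not given either and is likely rather than settled. Were it embryo over macrophage, every sign, every call above or below embryo, every call higher or lower than 0 h and every rank would turn round. The direction rests on 7 measured macrophage markers, of which 5 were above 0 at 0 h, with a median log2 ratio of 2.59 at 0 h and 2.20 to 3.27 later, against -2.12 at 0 h for 8 embryo markers (-2.50 to -2.12 later). The 2 macrophage markers below 0 at 0 h were Cd68 (-0.49) and Tyrobp (-0.04). Csf1r, Cd14 and Itgam were not among the markers measured here. Erythroid (3) and stromal (4) markers had medians of -4.21 and -4.25 at 0 h, and the 5 neutrophil markers had 0.22. In bulk RNA, fewer cells of a type and less RNA per cell cannot be told apart.

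The 0.5 h and 2 h arrays held many high ratios that followed the probe number. Of 207 runs of 96 consecutive probe numbers, 94 held at least 10% of probes 2-fold or more above 0 h on one of these arrays and are called affected runs. Of the members, 59 had every probe inside such runs, 58 had none there, and 20 had probes on both sides. The SD over probes of the change of a gene, pooled over 31 members with several probes, was 0.70, 1.25, 0.49 and 0.42 at 0.5, 2, 7 and 21 h. This spread is technical, and the 106 members with 1 probe have no such check.

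Against embryo RNA, 71 of the 137 solute carrier genes stayed within 2-fold on every array, 51.8% against 64.8% of all genes. These shares include the 0.5 h and 2 h arrays. A probe outside the affected runs was present for 78 of the 137 members and for 5996 of all 8637 genes. Whether this difference lowered the share of the members was not tested. On the 0 h array 12 members were at least 2-fold above embryo (5.4% of all genes were) and 6 at least 2-fold below (7.06% of all genes). On all 5 arrays 5 members were at least 2-fold above (2.44% of all genes) and 1 was below (3.53%). As shares of 137 these are 3.65% and 0.73%, the first near the background. The median log2 ratio at 0 h was 0.05 for the members and -0.03 for all genes.

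The 5 members high throughout carry an osmolyte, amino acids, a vitamin, nucleosides, and bile acids with steroids. Slc6a6, the taurine transporter, had log2 ratios of 2.46, 2.80, 2.91, 2.84 and 2.65 in order of time. Its lowest and highest values lay 0.45 apart. Slc7a7, the light chain of a transporter that exports arginine and lysine in exchange for neutral amino acids, had 1.61, 2.46, 2.23, 1.57 and 1.43. Slc23a2, which takes up vitamin C with sodium, had 1.26, 1.44, 2.63, 1.51 and 1.66, with the high value on the 2 h array. Slc28a2, a sodium-driven importer of purine nucleosides, and Slc51b, the small subunit of the organic solute transporter, are described with the late changes. Each of the 5 rests on 1 probe, and of these only the Slc23a2 probe lies outside the affected runs.

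On the low side, Slc25a44, a mitochondrial carrier of branched-chain amino acids, had -1.02, -1.60, -1.54, -1.72 and -1.67. Slc25a4, the ADP/ATP carrier of heart and muscle, had -1.22, -1.0, -1.28, -0.85 and -1.03 over 8 probes, and 38 of its 40 probe values were below 0. Slc25a5, the ADP/ATP carrier of proliferating tissue, had -0.22, 0.29, -0.14, -0.79 and -1.09. Slc7a13 (mean of the 5 arrays -1.56) and Slc3a1 (-1.30), a carrier and a heavy chain of kidney amino acid uptake, and the zinc exporter gene Slc30a1 (-1.27) also lay low. Slc25a44, Slc7a13, Slc3a1 and Slc30a1 each rest on 1 probe in an affected run.

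**Figure D1:**
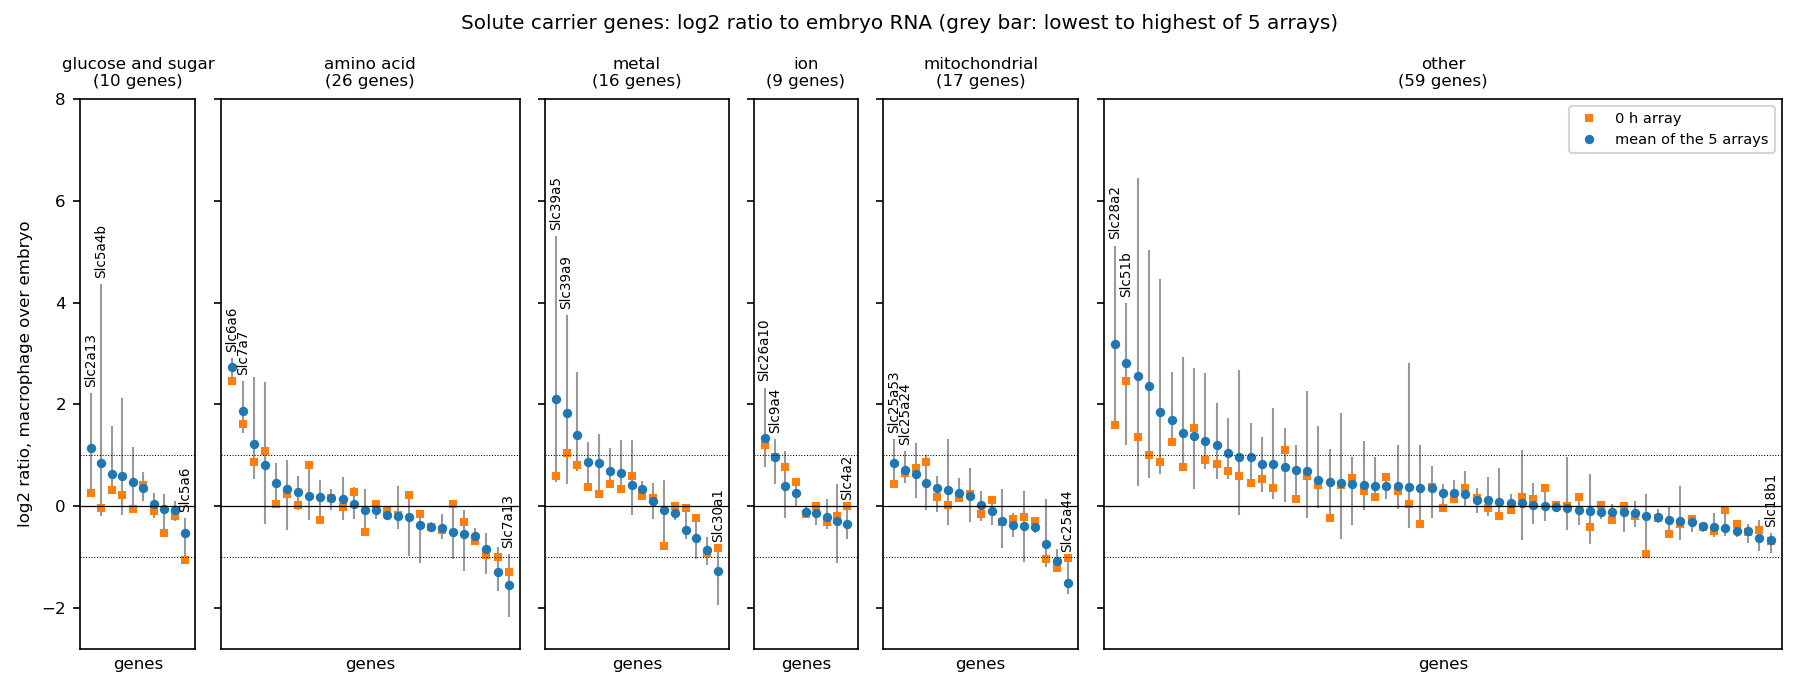
Log2 ratio of macrophage over embryo (y axis) for each of the 137 solute carrier genes, ordered by mean within its substrate group. Circles give the mean of the 5 arrays, squares the 0 h array and grey bars the lowest to highest array; the dotted lines mark 2-fold, and Slc6a6 lies above 2 on every array.

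At the late times few solute carrier genes stood apart from 0 h. After 7 h, 7 members were at least 2-fold higher (4.08% of all genes) and 3 lower (3.16%). After 21 h, 4 were higher (3.05%) and 3 lower (1.45%). As shares of 137 these counts are 5.11% and 2.19% at 7 h and 2.92% and 2.19% at 21 h, which is near the background. Without centring the counts at 7 h were 3 higher (2.55% of all genes) and 13 lower (5.90%). Under quantile normalization they were 8 (4.83%) and 11 (5.97%), so the balance of higher and lower depended on the scaling. At 21 h the counts were 4 (2.20% of all genes) and 5 (2.57%) without centring. They were 6 (3.75%) and 3 (4.53%) under quantile normalization. The median change of the members was -0.12 at 7 h and 0.03 at 21 h, against -0.0003 and 0.02 for all genes. In all, 125 members stayed within 2-fold of 0 h at both late times, 91.2% against 90.6% of all genes. Both late arrays put 4 members at least 2-fold higher (1.75% of all genes) and 1 lower (0.579%).

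The pair of nucleoside carriers measured on all arrays differed in direction. Slc28a2 had log2 ratios of 1.59, 2.66, 3.34, 5.12 and 3.21 in order of time. With the direction as read, it was 11.6-fold above 0 h at 7 h, rank 6 of 8637 genes from the highest, and 3.09-fold above at 21 h. In the other direction it would be as far below 0 h, with the same rank from the lowest. Every LPS array lay above 0 h, and the 7 h array was the highest. Against the 0.5 h array the log2 change was 2.46 at 7 h and 0.56 at 21 h. Slc29a1, which lets nucleosides equilibrate across the plasma membrane without an ion gradient, had 1.54, 1.89, 2.72, 0.42 and 0.34. It lay lower than 0 h at both late times, with changes of -1.13 and -1.20, after a higher value at 2 h. Both genes have 1 probe, each in an affected run, and their positive changes at 2 h turned negative under quantile normalization, as did that of Slc28a2 at 0.5 h. The late changes kept their direction in both genes.

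Slc2a13, the proton-coupled myo-inositol transporter of the glucose carrier family, had 0.26, 0.26, 0.94, 1.99 and 2.21. The first 2 arrays were alike and the last 2 stood highest, 3.32-fold and 3.88-fold above 0 h. Under quantile normalization its late changes were 2.25 and 2.79. Slc27a4, a fatty acid transport protein with acyl-CoA synthetase activity, had -0.94, -0.48, -0.01, 0.24 and 0.22, which is 2.26-fold and 2.22-fold above 0 h at the late times. The scaffold gene Slc9a3r1 had -0.23, 0.05, 0.55, 0.83 and 1.13, or 2.09-fold and 2.57-fold. The probes of Slc27a4 and Slc9a3r1 lie outside the affected runs, and that of Slc2a13 inside. In all 3 genes the 0 h and 0.5 h arrays were the lowest.

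Among the other late changes, Slc39a13, a zinc importer into the cytosol from internal vesicles, was 2.44-fold above 0 h at 7 h and 1.5-fold at 21 h. Slc25a22, the mitochondrial glutamate carrier, had -1.04, -1.19, -1.03, 0.15 and -0.63, so that the 7 h array alone stood out. Slc16a1, which carries lactate and pyruvate, was 2.09-fold and 1.76-fold above 0 h; it fell outside the naming rule and was chosen after its values were seen. All 3 rest on 1 probe in an affected run.

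On the lower side at 7 h, Slc38a2, an amino acid transporter induced by amino acid shortage, had 0.23, -0.28, 0.01, -0.97 and -0.05, with the 7 h array lowest. Slc22a4, a carrier of ergothioneine and carnitine, had 0.41, 0.27, 1.83, -0.65 and 0.44 on a probe in an affected run. Its other probe, outside the runs and with no 21 h value, read 0.06, 0.09, -0.22 and 0.14 at 0, 0.5, 2 and 7 h, so the low 7 h value appeared on 1 of 2 probes. Slc51b had 2.47, 3.85, 3.99, 2.51 and 1.21, so its 21 h array was lowest with a change of -1.26. Slc6a14, a broad importer of neutral and cationic amino acids, had 1.09, 0.53, 2.43, 0.29 and -0.34, with a change of -1.43 at 21 h. Both of its late values lay under 0 h and its 2 h value above. The probes of Slc38a2 and Slc6a14 lie outside the affected runs.

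**Figure D2:**
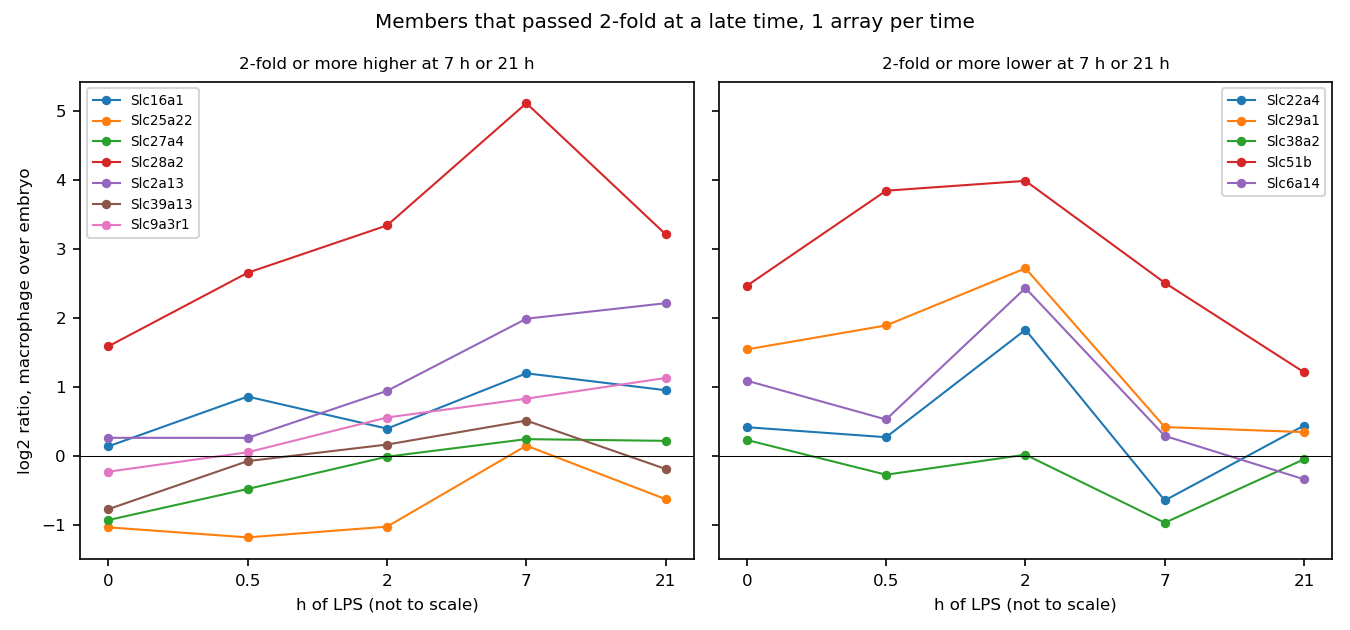
Log2 ratio of macrophage over embryo (y axis) against hours of LPS (x axis, evenly spaced) for the 12 members at least 2-fold from 0 h at 7 h or 21 h, 1 array per point. Slc28a2 peaks at 5.12 at 7 h and Slc2a13 is highest at 21 h (2.21), while Slc29a1 and Slc51b end at 0.34 and 1.21.

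The promoters of the 4 members higher at both late times are shown because these genes lay above 0 h together. Each covers 250 bases before to 50 after the annotated start, from RefSeq on build GRCm38.p6, and 105 of the 137 members had an entry (147 promoters). Capitals mark matches to any of 7 motifs searched on both strands. These were the NF-kappaB motif, AP-1 (TGANTCA), the interferon-stimulated response element, the cAMP element (TGACGTCA), the ETS core (GAGGAA), the E-box (CACGTG) and the hypoxia core (ACGTG), whose letters lie within those of the E-box.
Slc28a2, chr2:122426185-122426484, plus strand: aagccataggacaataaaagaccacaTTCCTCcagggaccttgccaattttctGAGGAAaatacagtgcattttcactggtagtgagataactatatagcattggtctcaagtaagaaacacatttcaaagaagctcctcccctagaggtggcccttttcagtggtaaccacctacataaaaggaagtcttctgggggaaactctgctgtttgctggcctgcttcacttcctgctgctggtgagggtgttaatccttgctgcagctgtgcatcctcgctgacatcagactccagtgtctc
Slc2a13, chr15:91573212-91573511, minus strand: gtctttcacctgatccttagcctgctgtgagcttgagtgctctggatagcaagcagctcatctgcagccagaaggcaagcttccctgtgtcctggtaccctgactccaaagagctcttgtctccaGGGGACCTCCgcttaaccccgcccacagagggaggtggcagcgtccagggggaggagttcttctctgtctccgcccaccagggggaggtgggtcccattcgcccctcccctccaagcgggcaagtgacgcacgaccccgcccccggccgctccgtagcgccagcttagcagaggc
Slc27a4, chr2:29802384-29802683, plus strand: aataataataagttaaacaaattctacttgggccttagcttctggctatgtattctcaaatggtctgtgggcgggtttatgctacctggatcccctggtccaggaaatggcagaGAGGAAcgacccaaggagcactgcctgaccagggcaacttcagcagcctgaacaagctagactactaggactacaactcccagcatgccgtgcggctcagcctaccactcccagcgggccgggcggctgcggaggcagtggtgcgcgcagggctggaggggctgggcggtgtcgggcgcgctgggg
Slc9a3r1, chr11:115163091-115163390, plus strand: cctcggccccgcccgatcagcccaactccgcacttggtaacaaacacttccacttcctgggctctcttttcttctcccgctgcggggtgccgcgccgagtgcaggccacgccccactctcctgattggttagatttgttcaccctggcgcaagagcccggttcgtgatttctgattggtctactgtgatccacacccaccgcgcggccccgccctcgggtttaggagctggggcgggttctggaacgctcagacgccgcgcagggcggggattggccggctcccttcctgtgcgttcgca
The Slc28a2 window holds 2 ETS cores, at bases 27 to 32 and 54 to 59 counted from its 5′ end, and that of Slc27a4 holds 1, at 115 to 120. Of all 32851 promoters, 28.3% held this core. The Slc2a13 window holds 1 match to the NF-kappaB motif, at 126 to 135, which 5.81% of all promoters held. No match to the 7 motifs was found in the letters of the Slc9a3r1 window. Over the 147 member promoters the shares were 8.16% for NF-kappaB, 5.44% for AP-1 (7.81% of all promoters), 1.36% for the interferon element (3.44%), 0.68% for the cAMP element (1.79%), 21.1% for the ETS core, 10.2% for the E-box (7.15%) and 24.5% for the hypoxia core (19.6%). A match describes letters and is no measurement of binding.

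Early after LPS, many more members read high, mostly on probes in affected runs. After 0.5 h, 12 members were at least 2-fold higher (5.95% of all genes) and 1 lower (1.01%). After 2 h, 29 were higher (12.4%) and 3 lower (1.1%). Of the 12 and 29, 10 and 22 had every probe inside affected runs, and 1 and 5 had none there. Over the 78 members with a probe outside the runs, 1 was higher (1.28% of 5996 genes) and 0 lower (0.984%) at 0.5 h, and 6 were higher (4.22%) and 3 lower (1.55%) at 2 h. On the same probes 2 were higher (4.52%) and 1 lower (2.87%) at 7 h, and 2 higher (2.55%) and 1 lower (1.08%) at 21 h. The median change of all 137 members at 2 h was 0.26 (0.07 for all genes), against -0.09 for the 78 (-0.08).

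In some genes with several probes the early values divided by run, and in others they did so less clearly or not at all. Slc39a5, a zinc importer of gut and pancreas, had 1 probe in an affected run at 0.58, 5.56, 10.4, 0.85 and 1.57. The probe outside read 0.61, 0.56, 0.23, 0.10 and 0.51, so both were alike at 0 h and differed at 0.5 h and 2 h. The gene mean of 4.70 at 2 h therefore has an SD over probes of 7.19. Slc16a9, a monocarboxylate carrier, had 1 probe in a run with 4.11 at 2 h and 2 outside with 0.17 and -0.44. For Slc41a3, a magnesium transporter, both probes lie in runs and moved together, with changes of 1.12 (SD over probes 0.08) at 0.5 h and 1.82 (SD 0.35) at 2 h. Slc39a9, a zinc importer of the Golgi, had 2.71 (SD 1.92) and 2.10 (SD 1.07) on 2 probes in runs. In Slc25a46 the 2 h changes inside and outside the runs overlapped. In Slc35f5 both probes lay below 0 h at 2 h, the inside probe less so. On probes measured on all arrays, the 2 h changes of Slc25a46 were -1.02, -0.19, 1.38 and 0.11 outside the runs and 0.10 and 1.99 inside. Those of Slc35f5 were -0.78 outside and -0.21 inside.

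**Figure D3:**
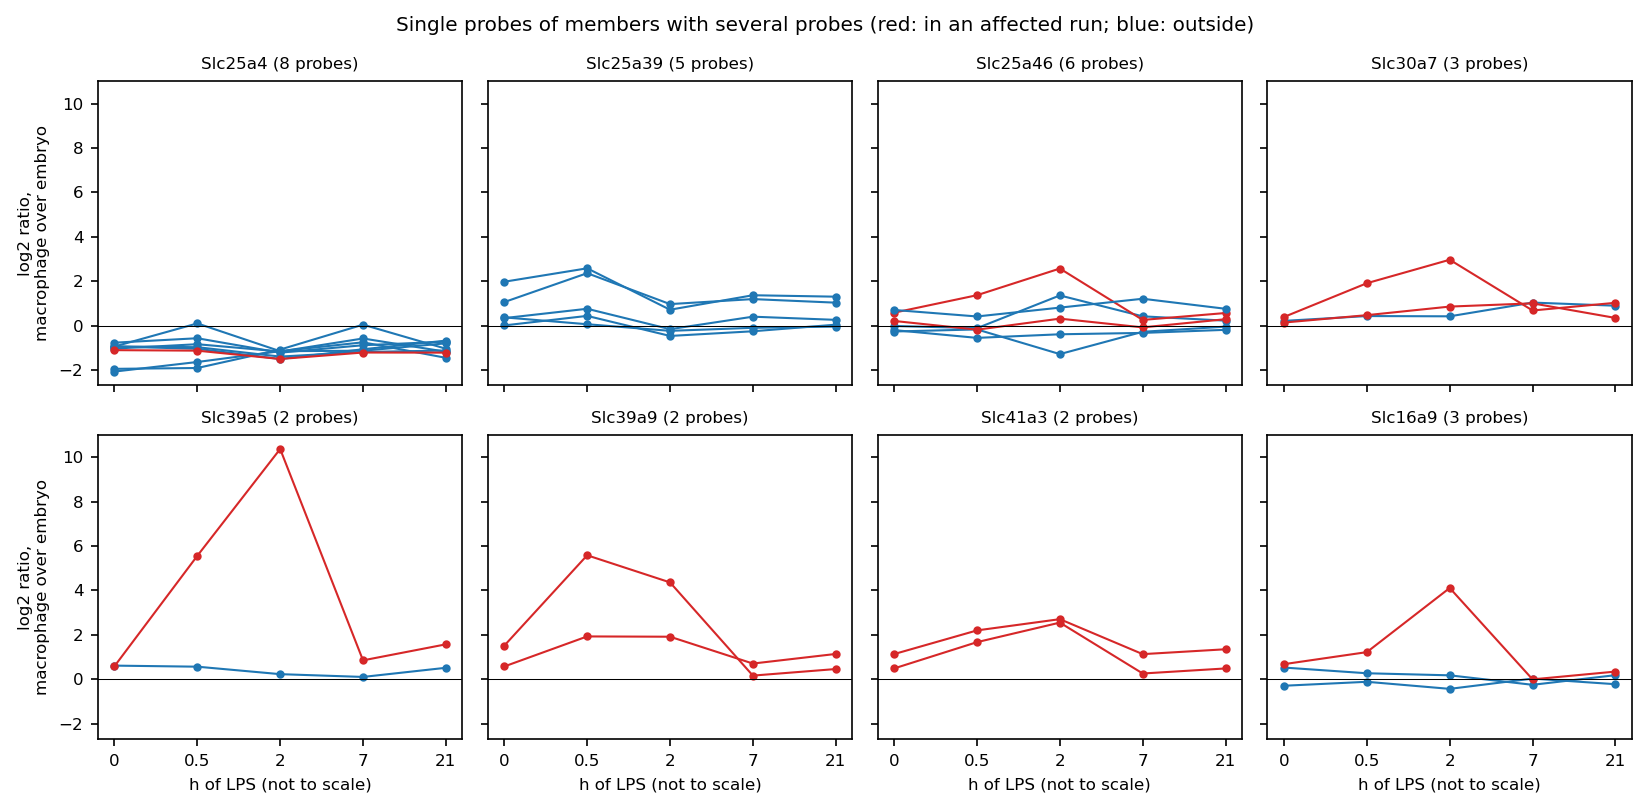
Log2 ratio of single probes (y axis) against hours of LPS (x axis, evenly spaced) for 8 members with several probes, chosen after their values were seen. Red probes lie in affected runs and blue probes outside; the red probe of Slc39a5 reaches 10.4 at 2 h while its blue probe reads 0.23.

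Of members with 1 probe in an affected run, Slc16a7, another lactate and pyruvate carrier, read 5.09 above 0 h at 2 h, Slc37a3 3.59 and the urea transporter gene Slc14a1 3.53 after 4.02 at 0.5 h. All 3 were within 2-fold of 0 h at 7 h and 21 h. The 1 member higher at 0.5 h on a probe outside the runs was Slc2a1, the main glucose transporter of activated macrophages. It had -0.05, 1.16, 0.06, 0.56 and 0.63, which is 2.33-fold above 0 h at 0.5 h, 1.08-fold at 2 h, 1.54-fold at 7 h and 1.61-fold at 21 h. At 2 h the 5 members higher on probes outside the runs were Slc5a4b (4.40), a member of the sodium glucose cotransporter family, Slc46a2 (2.77), Slc23a2 (1.38), Slc6a14 (1.35) and the mitochondrial glutamate carrier Slc25a18 (1.30). A 6th call outside the runs, Slc38a3, came from 1 of its 2 probes. For Slc5a4b and Slc46a2 the other 3 changes lay between -0.48 and 0.16.

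**Figure D4:**
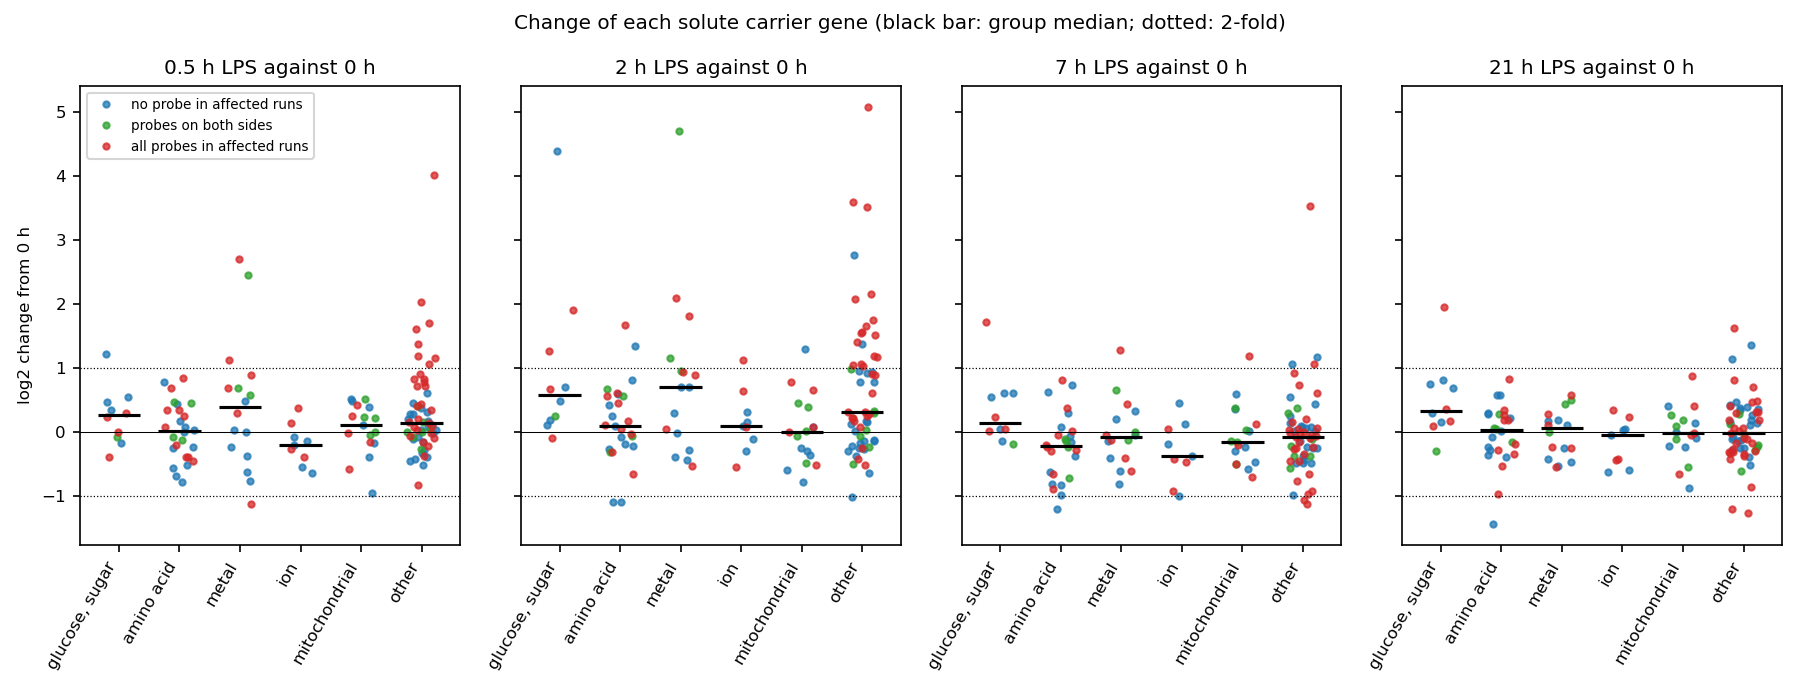
Log2 change from 0 h (y axis) of each member at 0.5, 2, 7 and 21 h of LPS, by substrate group (x axis), with black bars at group medians and dotted lines at 2-fold. Colour shows whether the probes lie in affected runs; most points above 2 at 0.5 h and 2 h have all probes there, and at 21 h the group medians lie between -0.04 and 0.33.

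Glucose and sugar carriers had medians of 0.27, 0.58, 0.15 and 0.33 in order of time, against 0.08, 0.07, -0.0003 and 0.02 for all genes, and 0.41, 0.34, 0.30 and 0.50 over the 6 genes outside the runs. Without centring the 7 h median was -0.07, against -0.22 for all genes, so its sign depended on the scaling. At 21 h, 9 of 10 lay above 0 h, as did 4535 of all 8637 genes. Slc2a13 was the only 1 at least 2-fold higher (3.05% of all genes) and 0 were lower (1.45%). Slc2a4, the insulin-responsive glucose transporter, had changes of 0.55, 0.49, 0.55 and 0.76 on 3 probes, all outside the runs. The SD over those probes was 0.31 at 0.5 h, 0.24 at 2 h, 0.31 at 7 h and 0.53 at 21 h. Slc2a3, the high-affinity glucose transporter of neurons and leukocytes, had 0.34, 0.19, -0.14 and 0.31. Slc5a6, the multivitamin transporter, which shares only the family number, had 0.48, 0.71, 0.62 and 0.82.

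Amino acid carriers lay slightly lower at 7 h, with a median of -0.21 and 7 of 26 above 0 h. At 21 h they had a median of 0.04 with 14 of 26 above. Of all 8637 genes, 4314 lay above 0 h at 7 h and 4535 at 21 h. The 21 h median was -0.11 without centring and -0.07 under quantile normalization, against -0.12 and -0.02 for all genes. None was at least 2-fold higher at 7 h or 21 h (4.08% and 3.05% of all genes). Of the sodium-coupled neutral carriers, Slc38a4 had -0.97 and Slc38a10 -0.82 at 7 h, besides Slc38a2, all on probes outside the runs. Slc38a5, by contrast, had 0.81 on 1 probe in an affected run. Slc1a5, the glutamine carrier, had -0.07, -0.05, -0.14 and -0.16 over 3 probes (SD over probes 0.13 to 0.51). Slc1a3, a glutamate transporter, had -0.69, -1.09, -0.63 and -0.39 on a probe outside the runs. Slc43a1, which carries large neutral amino acids, had -0.96 at 21 h on 1 probe in an affected run.

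Metal carriers showed no common late change. Zinc exporters of the cytosol (Slc30) had 0 of 7 genes past 2-fold at 7 h and 21 h. Zinc importers (Slc39) had 1 of 7 higher at 7 h, Slc39a13, and 0 at 21 h. Of all genes, 4.08% were higher and 3.16% lower at 7 h, and 3.05% and 1.45% at 21 h. Families of 7 genes are too small to be judged against these shares. Slc30a1, the plasma membrane zinc exporter, had log2 ratios of -0.82, -1.94, -1.36, -0.86 and -1.36 on 1 probe in an affected run. Its 0.5 h array was lowest, at a change of -1.12. Slc40a1, ferroportin, the iron exporter, had log2 ratios of 0.01, 0.01, -0.27, -0.14 and -0.24 on the probe measured on all arrays, which lies outside the runs. A second Slc40a1 probe, in an affected run and with no 2 h value, read -2.03, -1.47, -0.77 and -0.61 at 0, 0.5, 7 and 21 h. Its changes of 1.26 at 7 h and 1.43 at 21 h were past 2-fold, so the 2 probes of this gene disagreed at both late times. The change of Slc30a7 at 2 h, 1.17 over 3 probes, had an SD over probes of 1.25.

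Of the mitochondrial carriers, 15 of 17 stayed within 2-fold of 0 h at all 4 LPS times, as did 8 of 9 ion carriers and 94 of 137 members. These shares are 88.2%, 88.9% and 68.6%, against 79.5% of all genes. They include the 0.5 h and 2 h arrays. At 7 h and 21 h alone they were 94.1%, 100% and 91.2%, against 90.6% of all genes. The mitochondrial exceptions were Slc25a22 at 7 h and Slc25a18 at 2 h. Slc25a5 had changes of -0.57 at 7 h and -0.87 at 21 h on 1 probe outside the runs, and Slc25a4 had 0.37 (SD over probes 0.84) and 0.19 (SD 0.39). Slc25a39, which imports glutathione into mitochondria, had changes of 0.49, -0.59, -0.23 and -0.23 on 5 probes outside the runs, with SDs over probes of 0.57, 0.42, 0.32 and 0.30. Slc25a3, the phosphate carrier, had -0.17, -0.24, 0.02 and -0.21 on 3 probes. Among ion carriers the largest late change was -0.998 for Slc9c1, a sodium and proton exchanger of sperm, at 7 h, just inside 2-fold.

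The 21 h and 7 h arrays can be set against each other without the 0 h array. At 21 h, 6 members were at least 2-fold higher than at 7 h (1.82% of all genes) and 3 lower (1.12%). Slc48a1, which moves haem out of the phagolysosome, had log2 ratios of 1.10, 0.99, 0.08, 0.12 and 1.53 on a probe outside the runs. It was low at 2 h and 7 h, and its 21 h value lay 1.41 above that at 7 h. The others higher were Slc7a13 (1.23), Slc38a4 (1.20), Slc34a1 (1.16), Slc22a4 (1.09) and Slc22a12 (1.05). Those lower were Slc28a2 (-1.90), Slc51b (-1.30) and Slc35e3 (-1.06). Slc22a12 and Slc35e3 fell outside the naming rule and were chosen after their values were seen.

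Of the 137 members, 8, Slc40a1 and Slc22a4 among them, had another probe that was not measured on all arrays and entered no gene mean. The remaining 13 annotated genes had 1 probe each and no value on at least 1 array. Among them Slc5a11, a sodium and myo-inositol cotransporter, had log2 ratios of 2.03 at 0 h, 4.28 at 2 h, 2.82 at 7 h and 2.29 at 21 h. Slc24a2, a sodium, calcium and potassium exchanger, had 5.88, 2.68, 0.44 and 1.54 at 0.5, 2, 7 and 21 h and no value at 0 h. The others were Slc6a20a, Slc7a3, Slc9a8, Slc22a15, Slc25a28, Slc25a35, Slc29a2, Slc38a1, Slc39a11, Slc50a1 and Slc5a1. The probes of Slc5a11 and Slc24a2 lie in affected runs. Both genes were chosen after their values were seen, as were Slc2a4, Slc16a9, Slc23a2, Slc25a3, Slc25a18, Slc25a39, Slc25a46, Slc30a7, Slc35f5 and Slc38a3, which the naming rule did not pick.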

How the data were processed

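The 5 arrays carried macrophage RNA in 1 channel and embryo RNA in the other, per the labels. The deposited values are log10 ratios per probe, with base 10 inferred. At 0 h the 95th percentile was 0.415, which would be a 1.33-fold ratio in base 2. The normalization by the authors and the direction are not given in the sources used here. Array medians of the deposited log10 values were 0.041, 0.029, 0.050, -0.024 and -0.0018 in order of time, so the values were not fully centred, and 19344 to 19670 of 19828 probes had a value.

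Of the probes, 14759 had 1 gene symbol in the platform annotation, 170 several and 4899 none listed; 14628 matched GRCm38.p6 by Entrez identifier. Values were multiplied by 3.32, centred on the median of 18296 probes measured on all arrays, and averaged per symbol (Python 3.11.15, pandas 2.3.3, numpy 2.4.6). The steps were tested on simulated data. Genes at or beyond 2-fold were counted. Another 9 probes with several symbols, Slc genes among them, were left out.

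Members and lists were chosen with earlier results of these data known. The naming rule picked 56 members, and not all of them are described here. It took members past 2-fold in the same direction at 2 or more LPS times, and the 6 highest and 6 lowest per time. It also took the 2 highest and 2 lowest mean ratios per group and, of 19 genes with macrophage roles, the 7 that were measured. Of these 7, Slc15a4 is not described. The substrate subdivision of the group of other carriers was made after seeing the data. Alternatives were no centring, quantile normalization, leaving out affected runs, medians over probes, the 0.5 h baseline, base 2 and updated symbols.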

Additional observations from a re-analysis of the deposited data

How the results depend on the processing

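Each time is 1 array, so no array could be left out and no interval exists; the number of arrays limits every value, and runs marked by high early values lower early counts by construction when left out. No paired analysis was possible because each group holds 1 sample. Updated symbols gave the same members, and medians over probes moved 0 of 14 counts and medians. The 2-fold counts of members (higher and lower) at 0.5, 2, 7 and 21 h were 12 and 1, 29 and 3, 7 and 3, and 4 and 3. Without centring they moved to 3 and 13 at 7 h and to 5 lower at 21 h, with medians of -0.34 and -0.11, while the median of all genes was -0.22 and -0.12; 2 members were then 2-fold below embryo at 0 h. Under quantile normalization they were 4 and 8 at 0.5 h, 8 and 9 at 2 h, and 11 lower at 7 h, with medians of -0.026, 0.00831, -0.19 and -0.026, and 24 members were 2-fold above embryo at 0 h. Without the affected runs (78 members, so fewer genes) they were 1 and 0, 6 and 3, 2 and 1, and 2 and 1, with medians of -0.037, -0.089 and -0.071 at 0.5, 2 and 7 h, and 3 above and 2 below embryo. From the 0.5 h array they were 19 higher at 2 h, 4 and 16 at 7 h, and 18 lower at 21 h, with medians of 0.14 at 2 h and -0.026 at 21 h. Read as log2 they were 1 and 0, 5 and 0, 1 and 0, and 0 and 0, with medians of 0.026, 0.077 and -0.035 at 0.5, 2 and 7 h, and 0 above and 0 below embryo, since every value shrinks. Of all genes, 5.90% were lower and 2.55% higher at 7 h without centring, and 8.21% lower and 2.72% higher from the 0.5 h array. From the 0.5 h array 8.04% were higher at 2 h and 7.26% lower at 21 h, and without centring 2.57% were lower at 21 h. Under quantile normalization 2.78% were higher and 3.45% lower at 0.5 h, 4.98% and 4.57% at 2 h, and 5.97% lower at 7 h. Read as log2, 0.65% were higher at 0.5 h, 2.00% at 2 h and 0.08% at 7 h.

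Signs of past-2-fold changes of single genes turned in these cases; the cause was not tested. Under quantile normalization Slc28a2 stood at -0.52 at 0.5 h and -0.68 at 2 h, Slc51b at -1.34 and -1.97, and at 2 h Slc29a1 at -0.93, Slc26a10 at -0.41 and Slc6a14 at -0.12. Without the affected runs Slc39a5 stood at -0.048 at 0.5 h and -0.38 at 2 h. From the 0.5 h array the 2 h values of Slc10a4, Slc14a1 and Slc39a9 were -0.13, -0.49 and -0.62. Among the members named by the rule, none of the changes past 2-fold at 7 h or 21 h turned sign under no centring, quantile normalization, medians over probes, the 0.5 h baseline or, where a probe was left, without the affected runs.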

Other observations

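Partners and regulators of the carriers, a list of 25 genes of which 20 were measured, had 2 genes past 2-fold at 7 h, both higher, and 4 at 21 h, of which 3 were higher and 1 lower. Of all genes, 4.08% were higher and 3.16% lower at 7 h, and 3.05% and 1.45% at 21 h. The list median was -0.01 and -0.12. Fth1, the ferritin heavy chain that stores iron, had changes of 0.12, 0.24, 0.83 and 1.47 in order of time on 4 probes. Tfrc, the transferrin receptor, had 0.27, 0.24, -0.85 and -2.09 on 1 probe in an affected run. Hif1a, the hypoxia-inducible factor, had 0.47, 0.88, 1.53 and 1.94 on 6 probes, all in affected runs. Hmox1, which degrades haem, had 0.43, -0.86, 0.12 and 2.24 on 1 probe in an affected run, so its 21 h array stood highest. The metallothionein gene Mt2, whose product binds zinc, was 2.71-fold above 0 h at 7 h on 1 probe in an affected run, whereas Mt1, on 4 probes, was 1.31-fold above at 7 h and had a change of -0.13 at 21 h. Txnip, which restrains glucose uptake, had -0.34, -1.12, -0.71 and -0.37. Bsg, the partner of lactate carriers, had -0.02, 0.08, 0.27 and 0.35 on 4 probes, and Atf4, a regulator of amino acid transporters, had -0.08, 0.15, 0.02 and 0.31.

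Lists of other transporters and channels had few genes past 2-fold at 21 h. They were drawn by symbol prefix, so not every gene on them need be a transporter or channel. Abce1, Abcf1, Atp1b1, Kcnip1 and Kcnd3os are among them. The counts higher and lower were 0 and 0 of 11 ABC transporters, 0 and 0 of 16 P-type ATPases, 0 and 0 of 2 organic anion transporting polypeptides, 1 and 0 of 26 potassium channels and 0 and 0 of 9 aquaporins. At 7 h they were 0 and 0, 0 and 2, 1 and 0, 0 and 1, and 1 and 0 in the same order. Of all genes, 3.05% were higher and 1.45% lower at 21 h, and 4.08% and 3.16% at 7 h. Counts of 0 to 2 in lists of 2 to 26 genes are too small to be judged against these shares. At 2 h 3 of 11 ABC transporters were at least 2-fold higher, all on probes in affected runs. Of all genes, 12.4% were higher at 2 h.

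Within the group of other carriers, 12 nucleotide sugar transporters (Slc35), which feed glycosylation in the Golgi, had medians of 0.15, 0.24, -0.14 and 0.02 in order of time. At 2 h 2 were at least 2-fold higher (12.4% of all genes), both on probes in affected runs. None was past 2-fold at the late times. Of all genes, 4.08% were higher and 3.16% lower at 7 h, and 3.05% and 1.45% at 21 h. A list of 12 genes is too small to be judged against these shares. The 7 monocarboxylate carriers (Slc16) had medians of 0.15, 0.34, -0.38 and -0.20. At 7 h 2 of 7 lay above 0 h, as did 4314 of all 8637 genes. The 4 choline-like carriers (Slc44) had medians of -0.17, 0.32, -0.21 and -0.32. Over probes outside the affected runs the 2 h medians turned negative. They were -0.10 for 6 Slc35 genes, -0.18 for 4 Slc16 genes and -0.32 for 2 Slc44 genes, against -0.08 for all genes. The runs were marked by high early values, so leaving them out lowers early medians by construction. The 0.5 h median of Slc16 turned to -0.06 on the same probes, against 0.02 for all genes.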
